A study of Mus musculus with 4 samples.

Results

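The Cited genes encode small transcriptional coactivators that bind no DNA themselves. The 3 mouse members Cited1, Cited2 and Cited4 were described in cultured mouse erythroblasts, as the rows of the deposited expression table that carry these symbols, 3 of 23234 genes. RNA sequencing covered extensively self-renewing erythroblasts (ESREs), early red cell precursors kept dividing ex vivo. The proliferating control and the maturing control carried a non-targeting short hairpin RNA, and the knockdown carried a hairpin against Setd8, the histone H4 methyltransferase. The knockdown cells were proliferating, and the maturing control had spent 6 h in maturation medium when its RNA was taken. One further group, knockdown cells after 6 h in that medium, was not analysed here. The labels give 1 sample per group and do not say how many hairpins, cultures or embryos stand behind it. The family was selected on its FPKM values in these libraries, Cited1 among them for its high value in the knockdown, so its levels and the authors' calls for it are given as a description.

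Cited proteins attach through their acidic C-terminal tail to the coactivators CBP and p300 (genes Crebbp and Ep300), histone acetyltransferases, and link them to DNA-binding partners such as AP-2 and Smad factors. Cited2 and Cited4 occupy the same surface of these coactivators as the alpha subunits of hypoxia-inducible factors (HIF) and thereby dampen the response to low oxygen, and Cited2 is itself a HIF target. Cited2 is needed in blood stem cells for their maintenance. Cited1 was first found in pigment cells, works with Smad4 and the oestrogen receptor, and is carried on the X chromosome.

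The promoters are shown because the 3 genes had 3 different patterns across the libraries. The sequences are the 250 bases before the start site in RefSeq (GRCm38.p6), 5′ to 3′ on the gene's strand, and all 3 symbols matched. For Cited1, which has 3 start sites in that table, the most upstream is printed, and the expression values do not tell the sites apart. The windows are chrX:102252182-102252431 on the minus strand for Cited1, chr10:17722978-17723227 on the plus strand for Cited2 and chr4:120666313-120666562 on the plus strand for Cited4. Capitals mark every match, on either strand, to 6 motifs. GATA sites were searched as AGATAA and its forms with T as the first base, G as the last base, or both. The TATA box was searched as TATAAA and the CCAAT box by those letters. The core of hypoxia response elements was searched as ACGTG and as GCGTG, FOXO sites were searched as GTAAACA, and sites for the erythroid factor Klf1 as CCNCNCCC.
Cited1: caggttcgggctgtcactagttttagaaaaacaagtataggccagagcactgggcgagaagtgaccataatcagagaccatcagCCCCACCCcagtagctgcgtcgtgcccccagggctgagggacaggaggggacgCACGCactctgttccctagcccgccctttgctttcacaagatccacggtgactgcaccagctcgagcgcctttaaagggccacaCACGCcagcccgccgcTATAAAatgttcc
Cited2: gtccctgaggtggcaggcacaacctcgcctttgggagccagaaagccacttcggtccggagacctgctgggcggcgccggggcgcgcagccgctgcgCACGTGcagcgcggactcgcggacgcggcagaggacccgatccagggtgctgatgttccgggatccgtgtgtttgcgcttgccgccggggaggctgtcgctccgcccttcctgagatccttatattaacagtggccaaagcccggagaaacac
Cited4: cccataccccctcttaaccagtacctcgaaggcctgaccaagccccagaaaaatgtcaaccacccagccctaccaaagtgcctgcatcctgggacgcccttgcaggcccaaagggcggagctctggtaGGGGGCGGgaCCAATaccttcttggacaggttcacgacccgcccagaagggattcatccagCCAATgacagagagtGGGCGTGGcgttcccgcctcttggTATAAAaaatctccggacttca

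The windows of Cited1 and Cited4 had a TATAAA match, beginning 13 and 22 bases before the start, and that of Cited2 had none. These letters occur in 12.4% of 32851 mouse promoter windows of the same length. Cited4 had 2 CCAAT matches, a motif found in 33.8% of windows, and 2 Klf1 matches, found in 45.9%. One of these, GGGCGTGG, overlaps the hypoxia core match of Cited4. Cited1 had 2 hypoxia core matches and 1 Klf1 match. In Cited2 the 2 hypoxia core matches are both strands of 1 palindrome, CACGTG, and 38.6% of windows hold such a core. None of the 3 windows, nor those of the other 2 Cited1 start sites, held the GATA letters (26.5% of windows) or the FOXO letters (3.17%). The Cited2 window was 66.8% G and C with 26 CpG dinucleotides, and the printed windows of Cited1 and Cited4 were both 58.0%, with 13 and 10. The other start sites of Cited1 differed from each other: the second was 57.2% G and C with 9 CpG and a TATAAA match, and the third, at 65.2% with 30 CpG and no TATAAA or Klf1 match, was close to Cited2. The median over all windows was 52.4% G and C with 6 CpG. These matches describe letters in a window and no factor's binding was measured.

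Levels are in FPKM, fragments scaled to transcript length and to library size, which can be compared between genes. Setd8 was at 25.1 FPKM in the proliferating control, 9.28 in the knockdown and 25.9 in the maturing control, and Gata2, repressed by Setd8 according to the title of the study, at 54.9, 129 and 29.6 FPKM. Between 8923 and 9158 genes reached 1 FPKM in a library. Fragments per library are not given by FPKM values. Relative to the proliferating control, the depth seen from very low genes was 1.44 in the knockdown library and 1.55 in that of the maturing control. With 1 library per group no spread between replicates exists, and every standard error below comes from the authors' model, in which no replicate is named. In bulk RNA, a change in the share of a cell type and a change in RNA per cell cannot be told apart.

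Of the 12 erythroblast markers examined, all reached 1 FPKM in a library. In the knockdown 4 had higher and 8 had lower values than in the proliferating control. Gata1, among the 4 higher, was at 52.8, 61.1 and 65.5 FPKM in the proliferating control, the knockdown and the maturing control. Among the 8 lower, Alas2 was at 4.55, 0.0900 and 4.41 FPKM and Slc4a1 at 0.792, 0.268 and 2.34 FPKM. Markers of lymphocytes (6), pigment cells (6) and most of those of granulocytes and monocytes were near 0: summed FPKM lay between 0.0259 and 0.0425 for lymphocytes, between 0.188 and 0.363 for pigment cells, and between 1.20 and 1.49 for 7 granulocyte and monocyte genes. Of the 6 stromal and endothelial genes, Acta2 alone reached 1 FPKM.

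Cited1 was the member that stood apart in the knockdown. This gene (chromosome X, 99442775 to 99447108 in the deposited mm9 coordinates) was at 0.127 FPKM in the proliferating control, 35.7 in the knockdown and 0.101 in the maturing control. It was thus below 1 FPKM in both control libraries. By FPKM it ranked 725 of 23234 genes in the knockdown, against 10920 and 11097 in the controls. On the log2(FPKM + 1) scale, which understates the change of low genes, the knockdown ratio was 5.02. The authors' deposited table gave a log2 ratio of 8.14 with a model standard error of 0.60 and printed its q-value (adjusted p) as 0. Cited1 was the 1 member of 3 called changed in that comparison at a q of at most 0.05. Of the 11665 genes tested there, 9.05% were called by the authors, 5.81% as higher and 3.24% as lower. Because Cited1 was chosen with this value known, its call adds nothing to the description of its level.

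Mast cell and basophil markers moved in the same library. Of 10 such markers, 8 were called higher in the knockdown in the authors' deposited table and 0 lower, and none was at 0 in any library. In maturation 0 were called higher and 4 lower there, where 1.17% of all tested genes were called lower. Their summed level was 71.0 FPKM in the proliferating control, 501 in the knockdown and 38.1 in the maturing control. The largest part of each sum was the marker Hdc, at 42.5, 277 and 28.7 FPKM. Of 8 megakaryocyte markers, 4 were tested in the knockdown and 3 of them called higher, beside the same 5.81% of all tested genes. The 8 summed to 14.6, 23.6 and 8.74 FPKM, and Ppbp was at 0 in all 3 libraries. The 12 erythroblast markers summed to 1998, 961 and 3091 FPKM, mostly globin RNA. In the knockdown 3 were called lower, beside 3.24% of all tested genes. The part of these cell type markers in the Cited1 value was not tested. Pigment cell markers, the cells in which Cited1 was found, stayed low in the knockdown: Tyr was at 0.0691 FPKM, Dct at 0.00362 and Pmel at 0.156, while Tyrp1, Mlana and Sox10 were at 0.

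Cited2 (chromosome 10, 17443033 to 17445480) was at 5.16 FPKM in the proliferating control, 7.33 in the knockdown and 2.25 in the maturing control. Its highest level was in the knockdown and its lowest after 6 h of maturation. Its deposited log2 ratio in the knockdown was 0.51 with a model standard error of 0.52, and with a q of 0.999981 in the authors' deposited table Cited2 was not called. The 95% interval of the ratio from that model ran from -0.51 to 1.53.

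For maturation the deposited log2 ratio of Cited2 was -1.19 with a model standard error of 0.55. The interval ran from -2.27 to -0.12. The authors' deposited table gave an unadjusted p of 0.0294 and a q of 0.263, and Cited2 was not called. The maturing library held 43.7% of its level in the proliferating control.

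Cited4 (chromosome 4, 120339167 to 120340425) was the most abundant member in both control libraries. Its level was 26.2 FPKM in the proliferating control, 16.2 in the knockdown and 71.5 in the maturing control, the reverse order of Cited2. For maturation the ratio was 2.73, and the log2 ratio of FPKM + 1 was 1.42, in place 13 from the top among 5657 genes at 5 FPKM or more. The authors' deposited table gave a log2 ratio of 1.45 with a model standard error of 0.43, an interval from 0.60 to 2.30 and a q of 0.0140. Cited4 was the 1 member of 3 called in the maturation comparison, as higher. Of 11298 genes tested there, 1.75% were called in the authors' deposited table, 0.584% as higher and 1.17% as lower. At a q of at most 0.01 Cited4 would not be called.

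In the knockdown Cited4 stood at 61.9% of the control level. The deposited log2 ratio was -0.69 with a model standard error of 0.48, an interval from -1.63 to 0.25 and a q of 0.763, so it was not called. Cited1 in the maturation comparison was not called either, with a deposited log2 ratio of -0.33 and a wide interval from -1.79 to 1.13 at these low levels.

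**Figure D1:**
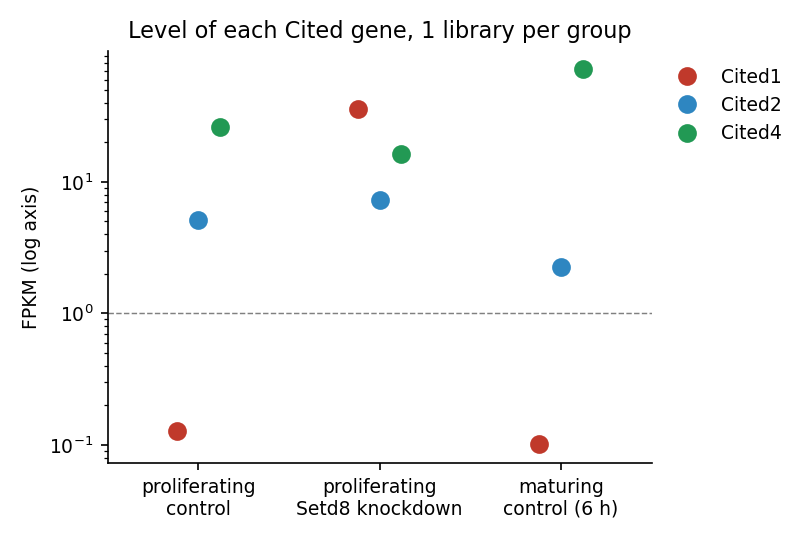
Level of Cited1, Cited2 and Cited4 in FPKM on a log axis, 1 point per library, with the dashed line at 1 FPKM. Cited1 lies below the line in both controls and at 35.7 FPKM in the knockdown, and Cited4 is highest in the maturing control at 71.5 FPKM.

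The 3 genes together made up 31.5 FPKM in the proliferating control, 59.2 in the knockdown and 73.9 in the maturing control. The make-up of that sum differed between libraries. Cited4 supplied 83.2% in the proliferating control and 96.8% in the maturing control, but 27.4% in the knockdown. Cited1 supplied 0.403% and 0.136% in the controls and 60.3% in the knockdown. Cited2 was a minor part in every library, at 16.4%, 12.4% and 3.05% in the proliferating control, the knockdown and the maturing control. The order of levels was Cited4, Cited2, Cited1 in both controls and Cited1, Cited4, Cited2 in the knockdown. Without replicates, no spread can be set against the steps of this order.

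**Figure D2:**
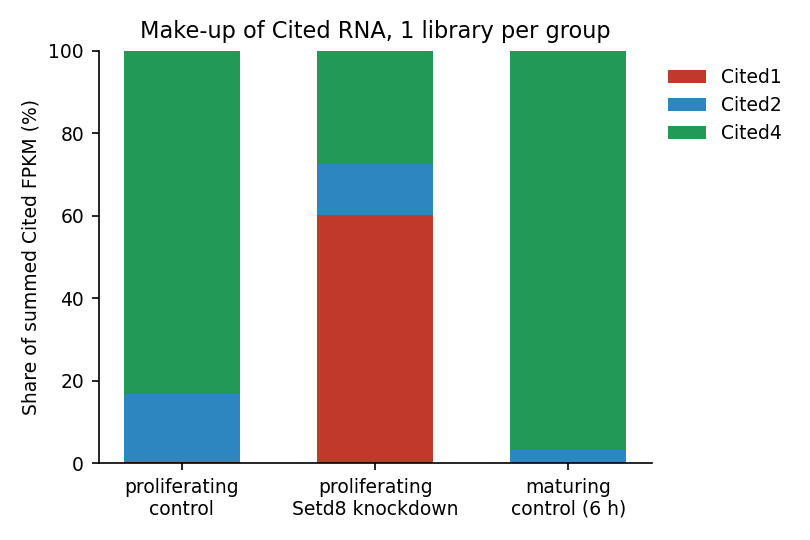
Share of each gene in the summed FPKM of Cited1, Cited2 and Cited4, in percent, for the 3 libraries. Cited4 takes 83.2% and 96.8% of the bars of the controls, and Cited1 takes 60.3% of the bar of the knockdown.

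The deposited table also sets the knockdown against the maturing control. This pair differs in both the hairpin and the medium, and it shares each of its libraries with a comparison above. All 3 members were called in it in the authors' deposited table, where 11.6% of 9241 tested genes were called, 7.22% as higher and 4.38% as lower. Cited1 and Cited2 were higher in the knockdown, with deposited log2 ratios of 8.47 and 1.70 and, for Cited2, a q of 0.0225. Cited4 was lower, at -2.14 with a q of 8.65e-05. For Cited2 and for Cited4 the knockdown and the maturing control lie on opposite sides of the proliferating control, so this ratio is larger in size than either ratio against that control.

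The genes whose pattern was most like each member were sought by the distance between their pairs of log2 ratios of FPKM + 1 (knockdown and maturation, both against the proliferating control), over 5131 named genes and 3 libraries. With 3 libraries many genes lie close together, so closeness is a description of these values. Cited1 and the 5 genes nearest to it were below 1 FPKM in both controls and entered through the knockdown library alone, so they share the high knockdown value for which Cited1 was chosen. Nearest to Cited1, at 0.14, was the myelin protein gene Pmp22, at 0.162, 33.6 and 0.0889 FPKM in the proliferating control, the knockdown and the maturing control. The adhesion receptor gene Cd97 followed at 0.189, 45.8 and 0.0829 FPKM, but the authors' deposited table, with a model standard error of 3.71, did not call it. The Rab GTPase gene Rab31 stood at 0.445, 37.0 and 0.441 FPKM. The protease inhibitor genes Serpinb1c and Serpinb1a, similar neighbouring copies that can share fragments, came next and were also called lower in maturation in the authors' deposited table, which Cited1 was not.

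Cited2 had closer company: the 4 near genes given here lay at 0.12 or less, and none of them was called in either comparison in the authors' deposited table. Among them was Cdkn2d, an inhibitor of cyclin-dependent kinases, at 7.24, 9.58 and 3.35 FPKM. Mtap, an enzyme of methionine salvage, the xylosyltransferase gene Xylt1 and the hyaluronan receptor gene Cd44 were the others.

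Nearest to Cited4 was Rhd, the Rh blood group gene, at a distance of 0.15, with 14.4, 7.84 and 41.9 FPKM. Epb4.9, which encodes the membrane skeleton protein dematin, stood at 3.07, 1.87 and 10.3 FPKM. The metallothionein gene Mt2 was at 216, 119 and 644 FPKM and its relative Mt4 at 31.5, 16.007 and 86.1 FPKM. Selenbp1, the fifth, was at 36.8, 19.9 and 84.0 FPKM. Of these 5, Rhd, Epb4.9, Mt2 and Selenbp1 were called higher in maturation and none was called in the knockdown in the authors' deposited table. The members themselves were far from each other on this measure, from 2.58 between Cited2 and Cited4 to 5.87 between Cited1 and Cited4.

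**Figure D3:**
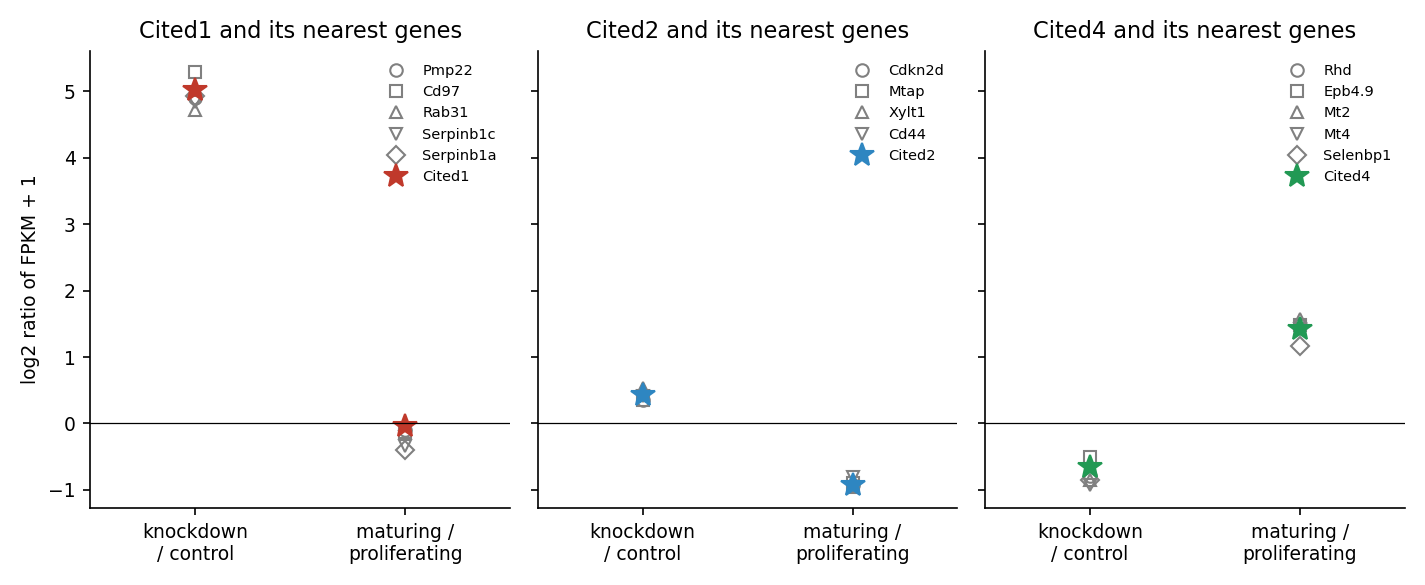
Log2 ratio of FPKM + 1 for each Cited gene (star) and up to 5 of the genes nearest to it (open symbols), for the knockdown against control and for maturing against proliferating control. Cited1 lies at 5.02 in the knockdown and -0.03 in maturation, while Cited4 lies at -0.66 and 1.42.

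The genes near the members in the genome are given by 17 of the nearest rows of the table, 3 at most on each side, of which 8 reached 1 FPKM in a library. Of them, 9 were not tested in either comparison and none of the other 8 was called in the authors' deposited table. With 9.05% and 1.75% of all tested genes called in the knockdown and in maturation, so few tested neighbours would hold few calls or none. At an unadjusted p under 0.05 there was 1 in the knockdown, Phka1, and 0 in maturation. Cited1 lies 59.1 kb from the ribosomal protein gene Rps4x, which was at 546, 530 and 495 FPKM in the proliferating control, the knockdown and the maturing control. On its other side LOC434825, 0.881 kb away, was at 0.00910 FPKM in the proliferating control and at 0 in the other libraries, and the histone deacetylase gene Hdac8, 32.9 kb away, was at 1.85, 1.87 and 2.22 FPKM. The mitotic helicase gene Ercc6l had 5.42, 4.02 and 4.47 FPKM and the isomerase gene Pin4 had 16.8, 17.1 and 18.2 FPKM. Phka1, a phosphorylase kinase subunit gene 262 kb from Cited1, had the largest knockdown ratio of the 17, 0.63 on the log2 scale of FPKM + 1, at 0.832, 1.85 and 0.779 FPKM.

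Around Cited2 the next 3 rows on one side (Gm20125, Nmbr and 1700016L04Rik) and Txlnb on the other were all below 0.05 FPKM. The 3 rows are distant, at 627, 2953 and 2964 kb from Cited2, and Txlnb is 70.5 kb away. Heca, 175 kb away, was at 4.45, 4.54 and 4.02 FPKM, and 3110003A17Rik was at 31.4, 37.4 and 26.8 FPKM. Around Cited4 the CTP synthase gene Ctps was at 7.65, 6.41 and 7.38 FPKM. The other 4 rows given here (Gm8439, Slfnl1, Mir30c-1 and Mir30e) were below 0.05 FPKM in every library. The rows of Mir30c-1 and Mir30e carry the same coordinates, 120430039 to 120504180, a shared span that need not be the extent of either gene. Whether these libraries capture short RNAs was not tested.

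**Figure D4:**
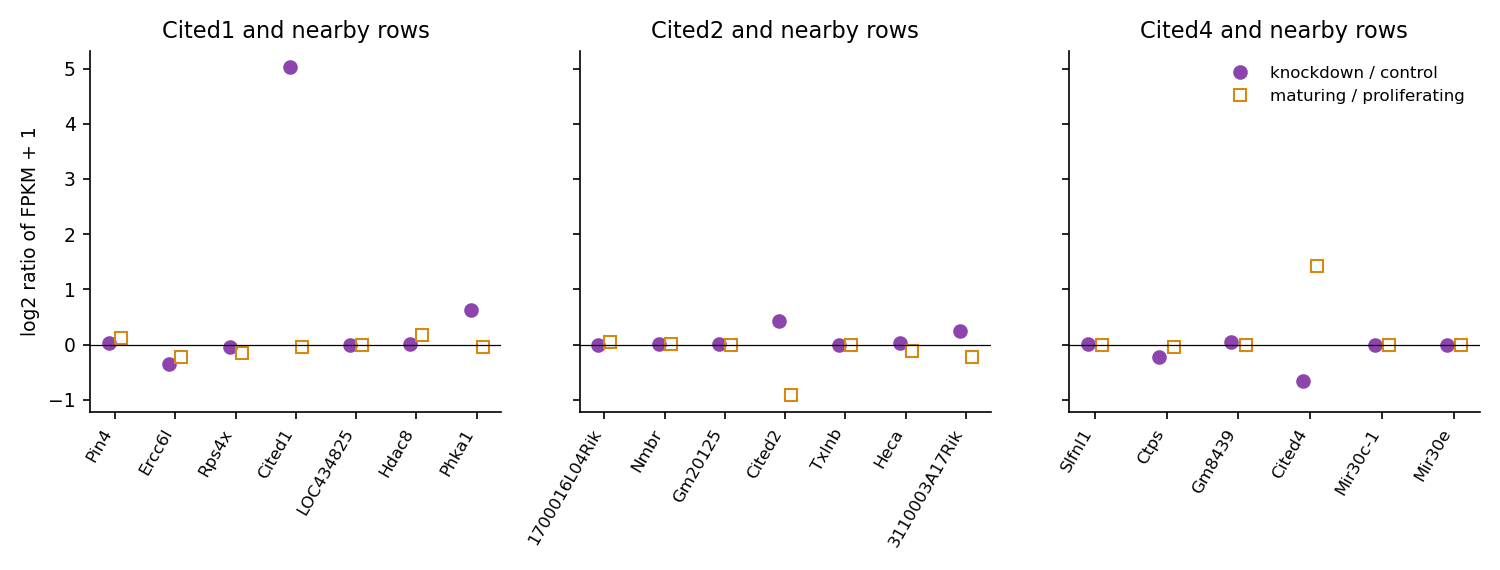
Log2 ratio of FPKM + 1 for each Cited gene and up to 3 rows of the table on each side, in genome order, for the knockdown (filled) and for maturation (open). The neighbours lie between -0.35 and 0.63 in the knockdown and between -0.23 and 0.18 in maturation.

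RNA of the coactivators CBP and p300 was detected in all 3 libraries. Of 8 coactivator and acetyltransferase genes, all tested, 1 was called higher in the knockdown and 0 were called in maturation in the authors' deposited table, which called 9.05% and 1.75% of all tested genes, so these counts are near that background. At an unadjusted p under 0.05 these counts were 2 and 0. The called gene was the nuclear receptor coactivator Ncoa1, at 0.478, 1.4997 and 0.547 FPKM in the proliferating control, the knockdown and the maturing control. Crebbp was at 1.11, 1.26 and 0.949 FPKM and Ep300 at 3.77, 3.97 and 3.93 FPKM, and neither of these direct partners was called. The 7 genes at 1 FPKM or more in a library (Ncoa1 through the knockdown alone) had a median log2 ratio of FPKM + 1 of 0.09 in the knockdown and 0.05 in maturation, against -0.05 and 0.01 over all 9611 such genes. Carm1 and Kat2a, the most abundant of the list, were at 9.90, 6.86 and 9.07 FPKM and at 8.003, 7.68 and 7.46 FPKM.

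Most DNA-binding partners were barely detected. Of 16 listed, 3 reached 1 FPKM in a library. The authors tested 4 in the knockdown and 5 in maturation and called 0, in numbers too small to set this apart from the 9.05% and 1.75% of all tested genes that their deposited table called. In each comparison 1 had an unadjusted p under 0.05. The 5 AP-2 genes (Tfap2a to Tfap2e) were at or below 0.0204 FPKM in every library. Smad4 was at 3.14, 4.35 and 2.58 FPKM, and the oestrogen receptor gene Esr1 was at 0.00881 FPKM or less. The nuclear receptor gene Pparg was at 3.55, 1.01 and 2.23 FPKM and was not called in the knockdown in the authors' deposited table, with a q of 0.0660.

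Of the 10 HIF subunit and oxygen sensing genes, 9 were tested in the knockdown and 1 was called, as higher, beside 5.81% of all tested genes in the authors' deposited table. This was Egln3, a prolyl hydroxylase that marks HIF for destruction and is also a HIF target. Egln3 was at 0.818, 6.66 and 0.294 FPKM, with a knockdown log2 ratio of 3.03 (q of 2.13e-07) in the authors' deposited table. Hif1a itself was at 7.25, 10.6 and 4.74 FPKM and was not called, and Epas1, which encodes the other main alpha subunit, was at 0.00721 FPKM or less. Egln2 was at 10.7, 12.3 and 12.7 FPKM. In maturation none of the 10 was called in the authors' deposited table, beside 1.75% of all tested genes. At an unadjusted p under 0.05 there was 1, again Egln3.

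Of 22 HIF target genes, 20 were tested in the knockdown. Of these, 4 were higher and 1 lower by the calls of the authors' deposited table, beside 5.81% and 3.24% of all tested genes. At an unadjusted p under 0.05 there were 7. Egln3 is in both lists and is counted in each. The 16 that reached 1 FPKM in a library had a median log2 ratio of FPKM + 1 of 0.09, beside -0.05 over all such genes, and 2 of them reached it through the knockdown alone, Egln3 and Pfkfb4. Pfkfb4, an enzyme that tunes glycolysis, was at 0.0749, 2.01 and 0.0892 FPKM. The glucose transporter gene Slc2a1 was at 1.73, 5.36 and 0.878 FPKM, with a knockdown q of 0.0317 in the authors' deposited table. The fourth, the carbonic anhydrase gene Car9, stayed low at 0.134, 0.563 and 0.107 FPKM. The gene called lower was the aldolase gene Aldoc, at 1.18, 0.170 and 0.974 FPKM. Of other classical targets, Vegfa was at 2.72, 1.46 and 1.33 FPKM, Pdk1 at 1.08, 1.23 and 1.40 FPKM and Bnip3 at 1.88, 1.82 and 2.04 FPKM. None of these was called, and they were named after their values were seen.

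In maturation, 18 HIF targets were tested, and of all tested genes 0.584% were called higher and 1.17% lower. Of the 18, 0 were higher and 1 lower by the calls of the authors' deposited table. This was Ddit4, a stress-induced inhibitor of mTOR signalling, at 17.3, 8.43 and 6.36 FPKM, with a deposited log2 ratio of -1.45 (q of 0.0399). At an unadjusted p under 0.05 there were 3 of the 18. Lower values were held by 11 of the 16 genes at 1 FPKM or more, with a median of -0.32 beside 0.01 over all such genes.

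**Figure D5:**
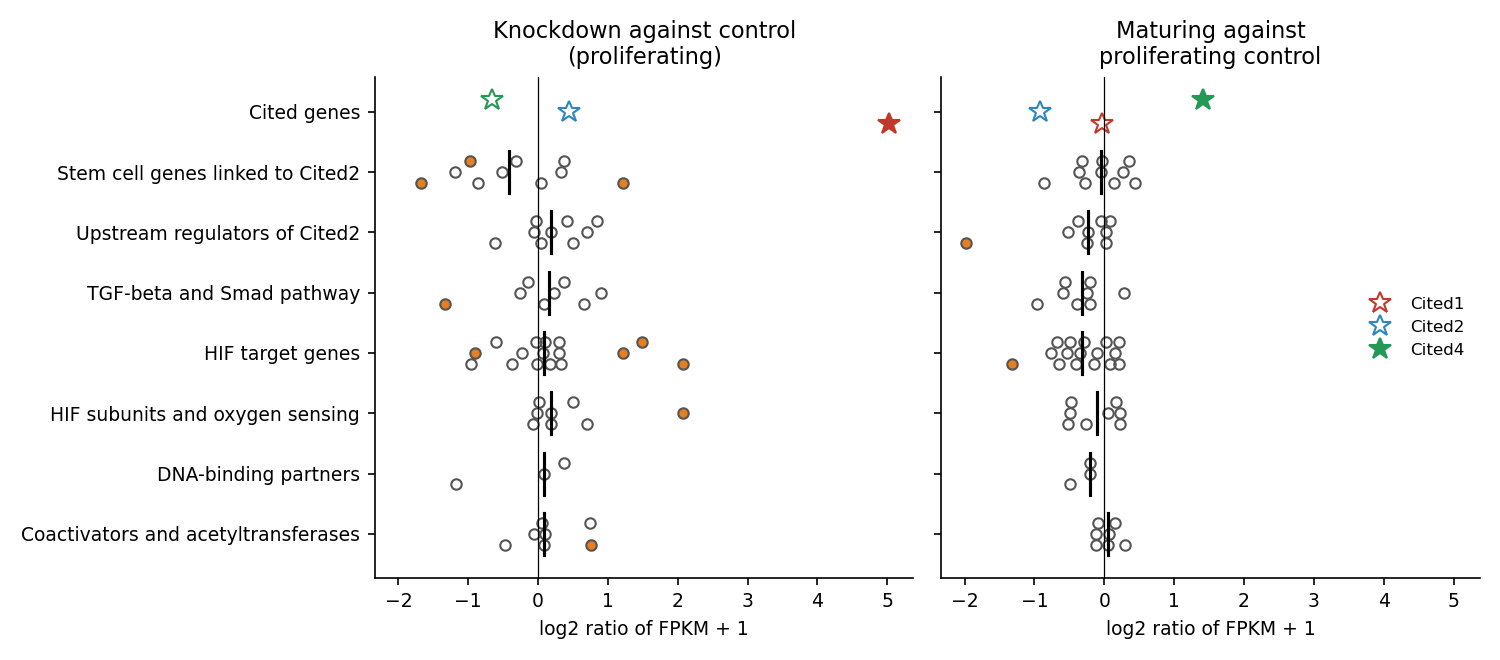
Log2 ratio of FPKM + 1 for the genes of 7 lists around the Cited proteins that reached 1 FPKM in a library, and for the Cited genes (stars), in the knockdown and in maturation. Filled symbols were called in the authors' deposited table and bars are list medians, which lie between -0.41 and 0.19 in the knockdown. Cited1, chosen for its knockdown value, is drawn at 5.02.

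The TGF-beta and Smad list (13 genes, 11 tested in the knockdown) held 1 gene that the authors' deposited table called higher and 1 that it called lower. The list is too small to set these counts apart from the 5.81% and 3.24% of all tested genes so called. At an unadjusted p under 0.05 there were 3. Tgif1, a repressor that limits Smad signalling, was at 2.59, 0.426 and 1.74 FPKM, with a deposited knockdown log2 ratio of -2.60 (q of 0.00180). The call in the other direction was of a low gene, the inhibitory Smad7, at 0.0243 and 0.108 FPKM in the control and the knockdown. In maturation 0 of the 10 tested were called in the authors' deposited table, beside 1.75% of all tested genes, with 1 at an unadjusted p under 0.05. The ligand gene Tgfb1 was at 48.3, 43.5 and 32.5 FPKM and was not called.

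Among 10 genes known to regulate Cited2, 9 were tested and 0 called in the knockdown in the authors' deposited table, beside 9.05% of all tested genes. At an unadjusted p under 0.05 there was 1, Foxo4. In maturation, where 1.75% of all tested genes were called, 1 of the 9 tested was called. This was Egr1, a growth factor response gene, called lower. Egr1 was at 3.12 and 0.0382 FPKM in the proliferating and the maturing control and 4.47 FPKM in the knockdown. Cited2 had the same order of levels in the 3 libraries, over a narrower range. So did Hif1a, Stat3 and Stat5a of this list, and a link of any of them to the Cited2 level was not tested. Stat5a was at 15.5, 16.05 and 12.8 FPKM and Stat5b at 12.6, 12.3 and 9.49 FPKM. The test of Stat3 failed in both comparisons.

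Of 13 genes linked to Cited2 in stem cell maintenance, 12 were tested. In the knockdown 2 were higher and 2 lower by the calls of the authors' deposited table, beside 5.81% and 3.24% of all tested genes. In maturation 0 were called, beside 1.75% of all tested genes. At an unadjusted p under 0.05 there were 6 in the knockdown and 1 in maturation. Gata2, named in the title of the study, and the kinase inhibitor gene Cdkn1c, at 0.0980, 0.520 and 0.0562 FPKM, were higher in the knockdown. The neighbouring kinase inhibitor genes Cdkn2a, at 3.21, 0.320 and 2.36 FPKM, and Cdkn2b, at 1.14, 0.0847 and 0.666 FPKM, were lower. The Polycomb gene Bmi1, whose product represses Cdkn2a, was at 11.1, 8.72 and 10.6 FPKM. Trp53 was at 62.8, 27.0 and 61.1 FPKM and was not called, with a knockdown q of 0.147 in the authors' deposited table.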

How the data were processed

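RNA was sequenced from cultured mouse erythroblasts, 1 library for each of 4 groups, and values of 3 libraries were used. The submitters' processing notes name Cufflinks 2.0.2, Cuffdiff, FastQC 0.10.1 and the build mm9. The aligner is not given in the sources used here, nor are the annotation and any library scaling. One table was deposited by the authors, with 65535 rows in 3 pairwise comparisons and the columns of Cuffdiff output. Its 2 values per row were read as the authors' FPKM. The third comparison covers 19067 of 23234 genes. Per the file headers, the deposited rows also hold a log2 ratio, a test statistic (a score), a p-value and a q-value. The deposited calls equal a q-value of at most 0.05 in tested rows. In size the statistic is the log2 ratio divided by a standard error, which was recovered from the sizes of both. In tested rows above 0 FPKM in both libraries, the statistic never had the sign of the log2 ratio. Intervals are 1.96 such standard errors to each side. Libraries were matched to table names by their labels. The knockdown name holds the target and the number of its title.

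Ratios of FPKM + 1 were computed on the log2 scale, with no test, since each group had 1 library. Members and lists were chosen with earlier results of these data known. Pathway and marker lists (143 genes, 142 matched) were described by the authors' calls and by medians over genes at 1 FPKM or more in a library. Text names up to 3 called genes per pathway list and comparison by size, or else the 2 most abundant, the 3 rows on each side of a member, and the 5 nearest patterns per member among genes at 5 FPKM or more, leaving out predicted genes, short RNAs and shared rows. Other list genes, such as Crebbp, Ep300, Bmi1 and Smad7, were named after their values were seen. Genes that the rule or lists take and that are not reported here number 3. Coordinates of genes are those of the deposited table and promoters are from RefSeq, on another build. Depth per library is unknown, so no counting interval was given, and relative depth came from ratios among genes below 0.03 FPKM. Alternatives were other pseudocounts, scalings, filters and call rules. The list and pattern steps were tested on simulated data. Python 3.11.15, numpy 2.4.6, pandas 2.3.3, scipy 1.17.1 and matplotlib 3.10.9 were used.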

Additional observations from a re-analysis of the deposited data

How the results depend on the processing

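All 48 values of the 6 member ratios under the alternatives had the sign of the reported value, and 44 of them stayed within 1 model standard error with the call kept. The exceptions were Cited1 in the knockdown (5.02), which became 7.30 with a pseudocount of 0.1, 2.99 with one of 5 and 6.94 on the TPM scale, where the pseudocount weighs less, and Cited4 in maturation (1.42), not called at a q of at most 0.01. The sign of a ratio could not change under a pseudocount or a call rule, so only the scalings could have changed it. The deposited calls were not computed anew under pseudocounts or scalings, so a call could be lost only under the call rules. No scaling moved the median of all measured genes by over 0.1. The 1056 genes called in the knockdown were 491 with a size of 1 beside the call, 559 at 1 FPKM or more and 247 at 5 FPKM or more. The 198 called in maturation were 106 at a q of at most 0.01, 82 with a size of 1, 106 at 1 FPKM or more and 63 at 5 FPKM or more. Of 54 list medians under alternatives, 53 stayed within the median model standard error of their genes and 4 had the other sign, 3 of them of the coactivator list. The TGF-beta list in the knockdown was 0.66 over genes at 5 FPKM or more, against 0.16. Only Tgfb1, Acvr1b and Ski passed that filter, and 0.66 is the value of Ski. Acvr1b (3.91, 8.16 and 1.53 FPKM in the proliferating control, the knockdown and the maturing control) passed through the knockdown alone. So did Ski, at 3.41, 5.96 and 4.37 FPKM, so this filter took both for their high knockdown level. No paired analysis was possible because each group had 1 library, and for the same reason no library could be left out. Depth is unknown, so the precision of Cited1 at its low control levels rests on the authors' model alone.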
